A study of Bos taurus with 4 samples.

Results

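The HOX genes were taken as every feature whose gene name is HOX followed by A, B, C or D and a number. This gave 39 of 21861 features, 11 in the HOXA, 10 in the HOXB, 9 in the HOXC and 9 in the HOXD cluster. Their unique molecular identifiers (UMIs, 1 per captured RNA molecule) were counted in single nuclei of cattle fat. Nuclei came from subcutaneous fat of the back and from intramuscular fat of 2 steers from a commercial feedlot, with 1 library per depot and animal and no treatment. The labels used here state no breed, age or diet. The libraries are called subcutaneous 1, subcutaneous 2, intramuscular 1 and intramuscular 2, with the number of the animal.

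HOX genes encode homeodomain transcription factors that give cells their position along the head-to-tail axis. In each cluster the genes lie in the order of their numbers, and low numbers are active nearer the head than high ones. Cells derived from mesoderm, such as fat progenitors, keep much of this code in adult tissue, and fat depots of different origin are known to carry different HOX genes. HOX proteins bind DNA together with cofactors of the PBX and MEIS families.

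The libraries differed in ways that touch every value below. After filtering, 874, 6126, 1774 and 63 nuclei were kept in subcutaneous 1, subcutaneous 2, intramuscular 1 and intramuscular 2, with 105481 to 4006966 UMIs per library. A list of muscle fibre genes made up 5.66% of UMIs in subcutaneous 1 and 23.2% in subcutaneous 2, but 0.00335% in intramuscular 1 and 0.0123% in intramuscular 2. Muscle RNA would rather be looked for in fat from within muscle, so this is the reverse of what the labels would lead one to look for. Its cause was not tested, and each depot direction below is that of the libraries as labelled. Intramuscular 2 also had only 0.0133% mitochondrial UMIs, against 1.24% to 1.65% in the others. Among all barcodes, 5 were found in more than 1 library. Nuclei were assigned to a type from marker genes, without HOX genes, by a strict gate that left 7007 of 8837 nuclei ungated and 1685 in the 6 types described here. Clusters were also made without HOX genes, and 213 of 229 gated adipocyte, 281 of 348 progenitor, 408 of 420 endothelial, 103 of 112 smooth muscle and 504 of 549 muscle fibre nuclei lay in a cluster of the same name. The clusters are given beside the gate. They hold more nuclei of most types and libraries, but fewer fibre nuclei in subcutaneous 1 (239 against 264). No cluster was named satellite, and 26 of 27 gated satellite nuclei lay in fibre clusters, so cluster fits have no satellite sum. Intramuscular 2 had 3 gated adipocyte nuclei and 1 gated endothelial nucleus and entered no gated comparison.

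Above number 10 almost no HOX RNA was seen. Of the 39 genes, 28 had more than 3 UMIs in the kept nuclei and 10 had none. The 9 genes numbered 11 to 13 had 4 UMIs together, all of HOXA13, and 8 of them had none. HOXB1 and HOXD10 also had no UMI. In all there were 6786 HOX UMIs, 2106 of them in the 6 gated types, and 15 genes held 1945 of the latter. In order of UMIs these were HOXA6, HOXD4, HOXA5, HOXA9, HOXC6, HOXC8, HOXA3, HOXB7, HOXA4, HOXB4, HOXC4, HOXC9, HOXB2, HOXA7 and HOXB3. This order is of UMIs and is not corrected for gene length, so it gives no order of expression between genes. All 39 names matched RefSeq's gene table of ARS-UCD2.0, which is not the build used for counting. In it 16 of the genes overlap another gene, among them HOXA3 to HOXA6, HOXB3 to HOXB6, HOXB8 with HOXB9, and HOXD3 with HOXD4. Which gene of such a group a UMI comes from is uncertain.

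**Figure D1:**
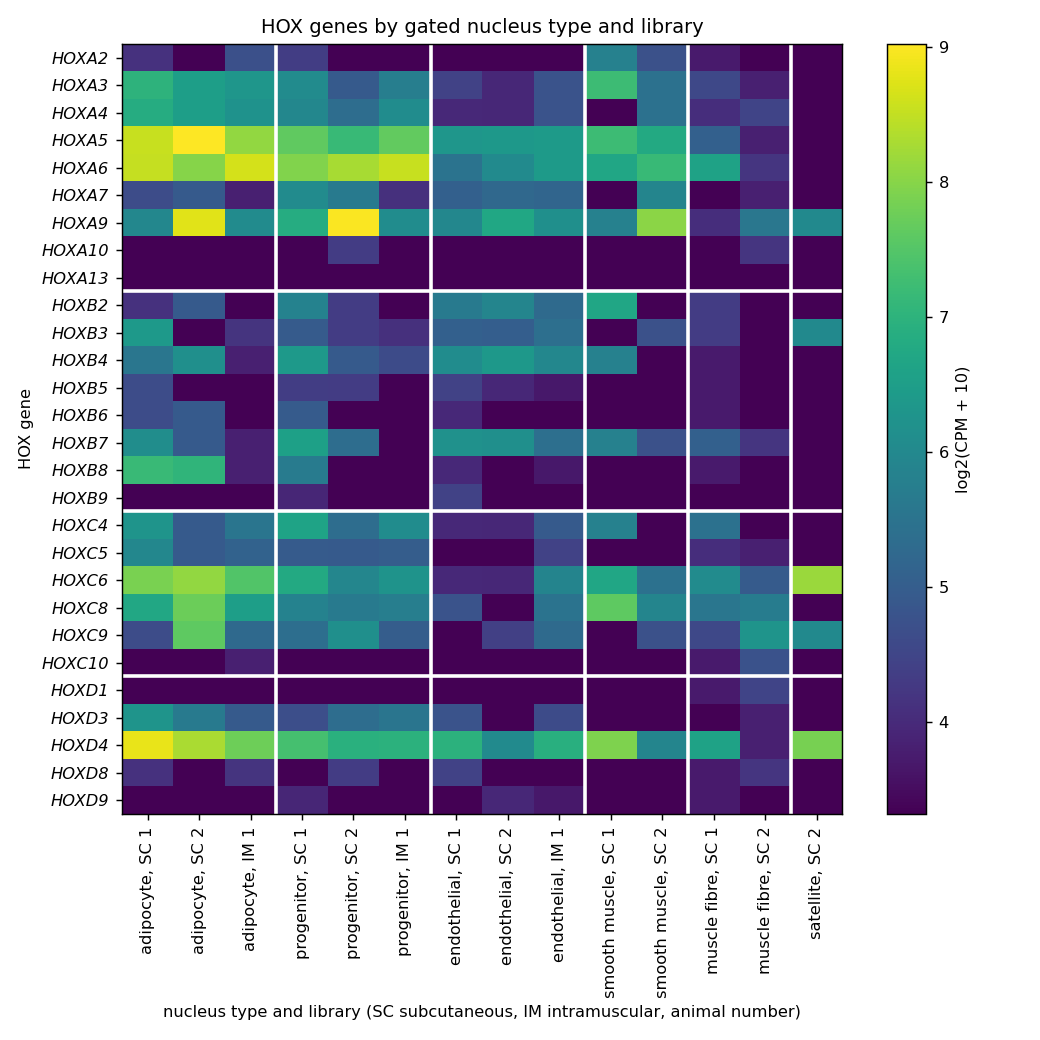
Level of each HOX gene with more than 3 UMIs (rows) in each gated nucleus type and library (columns), as log2(CPM + 10), with CPM for UMIs scaled to 1000000 per sum. HOXA3 to HOXA6 are seen in each adipocyte and progenitor column, HOXB2, HOXB3, HOXB4 and HOXB7 in each endothelial column, and the HOXA9 row is high in adipocyte, progenitor and smooth muscle nuclei of subcutaneous 2.

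Of the 6 gated types, adipocyte nuclei, from the lipid-storing cells, held the most HOX RNA. Levels are CPM, the UMIs scaled to a total of 1000000 per library and type. Adipocyte nuclei had 2349 CPM (95% Poisson interval 2096 to 2623) in subcutaneous 1, 2657 (2220 to 3155) in subcutaneous 2 and 1473 (1325 to 1633) in intramuscular 1. Progenitor nuclei, fibroblast-like cells from which adipocytes arise, had 1476 (1309 to 1659), 1479 (1246 to 1742) and 1112 (943 to 1304) CPM in the same order. Endothelial nuclei, of the vessel lining, had 596 (486 to 724), 559 (455 to 680) and 703 (617 to 797) CPM. In each of these 3 libraries the order was therefore adipocyte, progenitor, endothelial, and within a library the intervals of these types did not overlap. Smooth muscle nuclei had 1214 (793 to 1779) and 802 (591 to 1063) CPM in subcutaneous 1 and 2. The first interval overlaps that of progenitor nuclei and the second that of endothelial nuclei. Muscle fibre nuclei had 454 (381 to 538) and 270.1 (208 to 345) CPM, and satellite nuclei, the muscle stem cells, 661 (341 to 1154) in subcutaneous 2. The intervals cover counting error only.

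Macrophage nuclei, from another lineage, served as the background, since free RNA also gives UMIs in nuclei that do not express a gene. They had 451 (263 to 722), 132 (16.0 to 478) and 764 (529 to 1068) CPM in subcutaneous 1, subcutaneous 2 and intramuscular 1, at median depths of 926, 712 and 1417 UMIs per nucleus. Muscle fibre nuclei, at median depths of 783 and 690.0 UMIs, lay within the interval of macrophages of the same library. The totals of fibres and of satellite nuclei, whose interval overlaps that of the macrophages, were thus not set apart from this background. The macrophage sums held only 17, 2 and 34 HOX UMIs. In subcutaneous 2, with 2 UMIs in 13 nuclei, the interval is too wide to decide whether fibres and satellite nuclei lie above background. Overlap with the macrophage interval also held for progenitor nuclei of intramuscular 1 and endothelial nuclei of subcutaneous 2, while adipocyte nuclei lay above it in all 3 libraries. The endothelial totals of subcutaneous 1 and intramuscular 1 also lay within the macrophage interval of their library. HOXB genes gave 38 of 102 and 52 of 240 HOX UMIs in endothelial nuclei of these libraries, and 2 of 17 and 1 of 34 in macrophage nuclei. The intervals of these shares overlapped in subcutaneous 1, at 27.9% to 47.4% and 1.46% to 36.4%, and not in intramuscular 1, at 16.6% to 27.4% and 0.0744% to 15.3%. By clusters macrophage nuclei had 343 (209 to 529), 203 (74.4 to 441) and 324 (140 to 639) CPM in the order above. Progenitor nuclei of intramuscular 1, at 1164 (1065.5 to 1268), then lay above them. So did endothelial nuclei of subcutaneous 1, at 766 (675 to 867), and of subcutaneous 2, at 634 (559 to 717). Endothelial nuclei of intramuscular 1 and fibres of the subcutaneous libraries still overlapped with macrophages.

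The first comparison asked which HOX genes distinguish adipocyte nuclei. HOXA5, for which UMIs were 49, 25 and 65 in subcutaneous 1, subcutaneous 2 and intramuscular 1, had 367, 511 and 266 CPM in adipocyte nuclei. In endothelial nuclei it had 70.2, 72.7 and 76.1 CPM, and in fibres 23.7 and 4.22, so the adipocyte values did not overlap with either. HOXC6, a gene of the thoracic part of the code, had 224, 266 and 168 CPM in adipocyte nuclei and 99.8, 51.7 and 65.9 in progenitor nuclei. HOXD4 had 449, 307 and 209 CPM in adipocyte nuclei, above progenitor nuclei at 152, 114 and 117. HOXC8, known to hold back brown fat genes, had 97.2, 204 and 81.8 CPM in adipocyte nuclei and 47.3, 41.4 and 43.9 in progenitor nuclei. HOXA6, with 359, 245 and 393 CPM in adipocyte nuclei, overlapped with progenitor nuclei at 236, 299.9 and 366.

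Of the 39 HOX genes, 16 passed the filter on low counts, and 8 of these were higher in adipocyte nuclei than in the average of the other 5 types and none lower. Over all 7322 genes tested, 13.3% were called in either direction and 10.9% higher. Values are log2 fold changes from the quasi-likelihood test of edgeR, with p adjusted by Benjamini-Hochberg over all genes and an SE worked back from the F statistic. HOXA5 rose by 3.55 (SE 0.52, adjusted p = 4.57e-06) and HOXA6 by 2.85 (SE 0.61, adjusted p = 9.47e-04). HOXC6 rose by 1.58 (SE 0.425, adjusted p = 0.00963), HOXD4 by 1.46 (SE 0.38, adjusted p = 0.0066) and HOXA4 by 2.80 (SE 0.84, adjusted p = 0.0209). Nearer the threshold, HOXA3 rose by 2.50 (SE 0.79, adjusted p = 0.0292) and HOXC8 by 2.34 (SE 0.81, adjusted p = 0.0473). HOXB8 rose by 4.85 (SE 1.11, adjusted p = 0.00233). The median over the 16 HOX genes was 1.52, against 0.48 over all genes.

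The satellite sum rested on 1 library with 12 HOX UMIs, and HOXA3, HOXA4, HOXA5, HOXA6, HOXC8 and HOXB8 had none in it, so their folds depend on the prior count that edgeR adds. Without satellite nuclei, where the median of all genes moved to 0.08, HOXA5 rose by 2.15 (SE 0.33, adjusted p = 3.23e-05), HOXA6 by 1.38, HOXA4 by 1.77, HOXA3 by 1.54 and HOXC6 by 1.90. HOXC8, at 1.05 (SE 0.47, adjusted p = 0.108), then missed the threshold. In this fit 7 of 13 tested HOX genes were called, beside 21.6% of all genes. By clusters 9 were called, the same 8 and HOXD3 at 1.65 (SE 0.52), beside 31.9% of all genes, with HOXA5 at 1.98 (SE 0.27). Without subcutaneous 1 only HOXA5 and HOXA6 were called, but HOXB8 was not tested in that fit, and DESeq2 called 3. HOXA3 lost its call in 8 of 13 alternative fits and HOXC8 in 9 of 13.

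Progenitor nuclei shared the HOXA part of this code. HOXA5 had 189, 134 and 190.3 CPM in subcutaneous 1, subcutaneous 2 and intramuscular 1. HOXA9, a more posterior gene, had 105, 496 and 58.5 CPM, so subcutaneous 2 stood far above the other libraries. HOXC4, with 89.3, 31.0 and 58.5 CPM from 17, 3 and 8 UMIs, was lowest in subcutaneous 2, as it was in clusters. HOXA4, with 52.5, 31.0 and 58.5 CPM from 10, 3 and 8 UMIs, had 37.7, 65.6 and 117 CPM by clusters, so the order of its libraries depends on how nuclei were assigned. Of the 16 HOX genes tested, 3 rose in progenitor nuclei and none fell, beside 4.47% of all genes called and 4.41% called higher. HOXA6 rose by 2.61 (SE 0.61, adjusted p = 0.00542, edgeR), HOXA5 by 2.22 (SE 0.66, adjusted p = 0.0413) and HOXA9 by 1.64 (SE 0.43, adjusted p = 0.0143).

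Most progenitor calls changed with the fit. Without satellite nuclei HOXA6 was at 1.26 (SE 0.35) and HOXA5 at 0.90 (SE 0.35, adjusted p = 0.145), so that 2 were called beside 5.92% of all genes. By clusters HOXA6, HOXA5, HOXA4 and HOXC4 were called, beside 11% of all genes, and HOXA9 was not (0.81, SE 0.35, adjusted p = 0.131). Without subcutaneous 2 no HOX gene was called, without subcutaneous 1 only HOXA6, and DESeq2 called 0. A test of progenitor against adipocyte nuclei alone was not run.

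In endothelial nuclei HOXB genes gave a larger share of HOX UMIs than in adipocyte or progenitor nuclei, but not a higher level in every library. HOXB4, known for its role in blood-forming cells, had 10, 13 and 18 UMIs in subcutaneous 1, subcutaneous 2 and intramuscular 1, which is 58.5, 72.7 and 52.7 CPM. HOXB7 had 64.3, 61.5 and 32.2 CPM and HOXB2 40.9, 50.3 and 29.3. HOXC6 had 5.85, 5.59 and 49.8 CPM, from 1, 1 and 17 UMIs, so intramuscular 1 stood above both subcutaneous libraries. Adipocyte list genes also took more UMIs in its endothelial nuclei, 0.487% against 0.0567% and 0.0201%, as did progenitor list genes, 0.499% against 0.189% and 0.0643%. Their part in the HOXC6 level was not tested. HOXB genes gave 37.3% of endothelial HOX UMIs (exact binomial 95% interval 27.9 to 47.4) in subcutaneous 1, 38.0% (28.5 to 48.3) in subcutaneous 2 and 21.7% (16.6 to 27.4) in intramuscular 1. In adipocyte nuclei the share was 14.7%, 9.23% and 1.39%, and in progenitor nuclei 20.6%, 5.59% and 1.97%, so the endothelial share was the highest of these 3 types in each library. The summed HOXB level was 222 (157 to 305), 212 (150.3 to 291) and 152 (114 to 199.6) CPM in endothelial nuclei, 344, 245 and 20.5 in adipocyte nuclei and 305, 82.7 and 22.0 in progenitor nuclei. Endothelial nuclei were thus not above adipocyte nuclei in either subcutaneous library, and were above both types in intramuscular 1. In progenitor nuclei of subcutaneous 1, HOXB4, HOXB7 and HOXB2 had 73.5, 84.0 and 47.3 CPM, each more than in endothelial nuclei there. By clusters it was 30.2%, 22.0% and 25.3% in endothelial nuclei, while adipocyte nuclei had 129 of 645 UMIs, 10.1% and 2.17%.

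Of the 16 HOX genes tested, 3 rose and 1 fell in endothelial nuclei, beside 16.2% of all genes called, 14.8% higher and 1.37% lower. The 3 that rose are 18.8% of those tested, close to the share of all genes. HOXB4 rose by 3.30 (SE 0.83, adjusted p = 0.00354, edgeR), HOXB2 by 2.93 (SE 1.02, adjusted p = 0.0419) and HOXB7 by 2.41 (SE 0.86, adjusted p = 0.0465), and HOXC6 fell by 2.00 (SE 0.55, adjusted p = 0.00739). HOXB2, HOXB4 and HOXB7 had no UMI in the satellite sum, so their folds also depend on the prior count of edgeR. By clusters the same 4 genes were called, with HOXB4 at 1.95 (SE 0.47), HOXB2 at 2.11, HOXB7 at 1.95 and HOXC6 at -1.72 (SE 0.35). HOXA4 and HOXA6 were then also lower, beside 18.2% of all genes. Without satellite nuclei HOXB4 was at 2.44 (SE 0.64, adjusted p = 0.00616, edgeR) and HOXC6 at -1.80 (SE 0.55). HOXB7, at 1.37, then missed the threshold (adjusted p = 0.0875), HOXB2 was not tested, and HOXA6 and HOXC8 were also lower, beside 18.1% of all genes. Without subcutaneous 1 no HOX gene was called, but HOXB2, HOXB4 and HOXB7 were not tested in that fit. Without subcutaneous 2 none of these 4 was called and HOXA6 was lower (-1.72, SE 0.50). Without intramuscular 1 only HOXC6 was called, but HOXB4 was not tested in that fit.

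**Figure D2:**
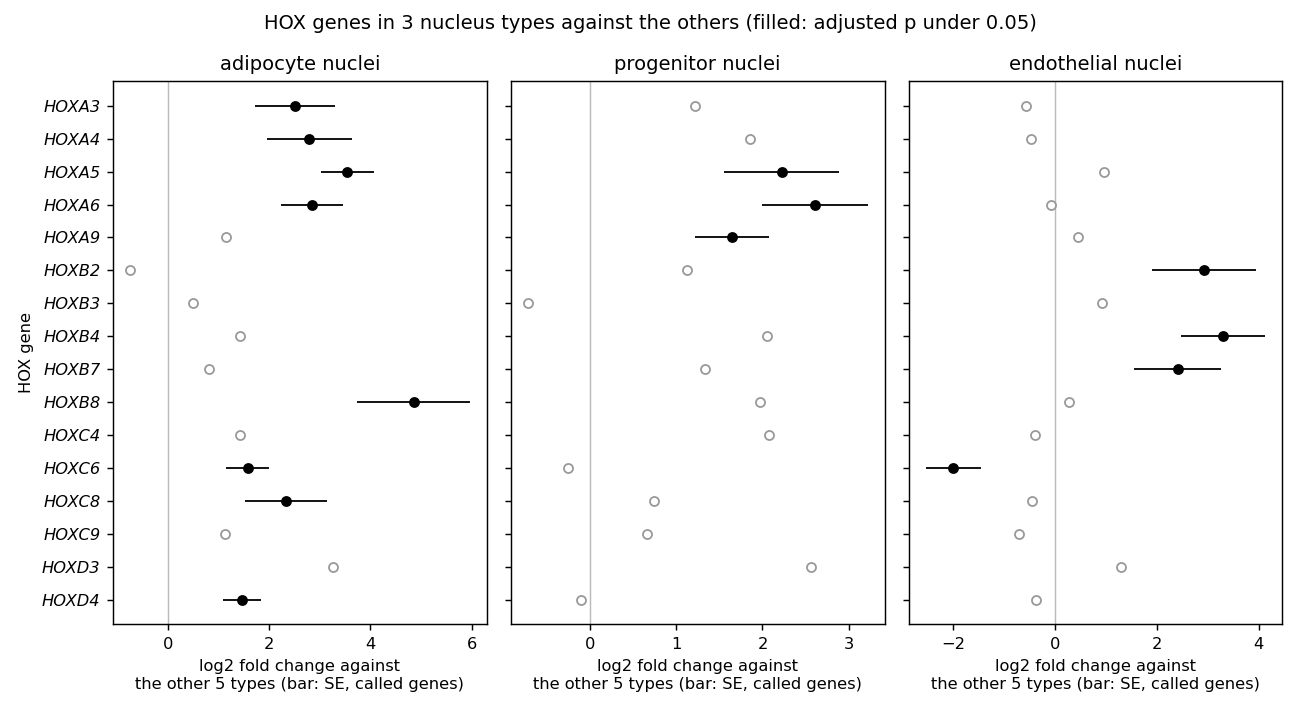
Log2 fold change of the 16 tested HOX genes in adipocyte, progenitor and endothelial nuclei against the average of the other 5 gated types, on separate horizontal axes. Filled points passed edgeR's adjusted threshold of 0.05 and carry their SE: 8 are filled for adipocyte, 3 for progenitor and 4 for endothelial nuclei, with HOXC6 the only one below 0.

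Smooth muscle nuclei of the vessel wall had 26 and 48 HOX UMIs. HOXA genes gave 10 and 37 of these. HOXA9 had 1 and 15 UMIs and HOXA6 2 and 8, in subcutaneous 1 and 2. None of the 16 HOX genes was called by edgeR, 0 had an unadjusted p under 0.05 and DESeq2 called 0, beside 2.29% of all genes called by edgeR. None was thus detected with these few UMIs. In smooth muscle clusters HOXA9 had 45 UMIs in subcutaneous 2 and none in subcutaneous 1. The ratio was 6.35 with 3 counts put in place of the 0, and its lower 95% limit from the counts themselves was 4.96.

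Muscle fibre nuclei differed between their 2 libraries in which genes were seen. In subcutaneous 1 HOXA6 had 88.1 CPM, HOXD4 88.1, HOXC6 57.6 and HOXC4 33.9. In subcutaneous 2 the same genes had 8.44, 4.22, 21.1 and 0 CPM, while HOXC9 had 67.5 against 13.6 and HOXA9 38.0 against 6.78. In fibre clusters the gap was smaller for HOXA6, at 58.5 CPM in subcutaneous 1 and 39.4 in subcutaneous 2 (ratio 0.674, 0.387 to 1.27), and for HOXD4, at 91.9 and 49.2 (0.536, 0.342 to 0.879). HOXC9 had 8.35 and 47.4 CPM there, a ratio of 5.67 (1.54 to 47.3). HOXA6 was thus not distinguishable between the libraries by clusters. By edgeR 0 of 16 HOX genes were called in fibres, beside 15.9% of all genes, 3 had an unadjusted p under 0.05 (HOXD4, HOXC9 and HOXA9) and DESeq2 called 0. By clusters HOXA5 (-2.08, SE 0.41), HOXA9 (-1.57, SE 0.46), HOXB7 (-2.07, SE 0.69) and HOXB2 (-2.39, SE 0.92) were lower, beside 11.2% of all genes called lower. Without satellite nuclei HOXA5 (-2.55, SE 0.56) and HOXA9 (-1.83, SE 0.56) were lower, beside 22.5%. Satellite nuclei had 5 UMIs of HOXC6, 4 of HOXD4 and 1 each of HOXA9, HOXB3 and HOXC9. None of the 16 was called there by edgeR, 2 had an unadjusted p under 0.05 (HOXA6 and HOXA5) and DESeq2 called 0, beside 0.15% of all genes called by edgeR.

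Across types, subcutaneous 2 carried a more posterior code than the other libraries. Genes numbered 9 to 13 gave 23.1% (16.1 to 31.3) of adipocyte HOX UMIs in subcutaneous 2, against 2.87% (1.32 to 5.37) in subcutaneous 1 and 6.11% (3.87 to 9.11) in intramuscular 1. In progenitor nuclei the shares were 38.5% (30.5 to 47.0), 9.96% (6.72 to 14.1) and 7.24% (3.67 to 12.6) in that order of libraries. In fibres they were 48.4% (35.8 to 61.3) in subcutaneous 2 and 5.97% (2.61 to 11.4) in subcutaneous 1. The intervals did not overlap in these 3 types, although the HOX level of fibres, as said, lay within that of macrophages. In smooth muscle nuclei the shares were 33.3% (20.4 to 48.4) and 3.85% (0.0973 to 19.6). In endothelial nuclei they were 20 of 100 UMIs (interval 12.7% to 29.2%) in subcutaneous 2, 10.8% (5.51 to 18.5) in subcutaneous 1 and 13.3% (9.30 to 18.3) in intramuscular 1, with overlapping intervals. By clusters endothelial nuclei had 29.0% (23.5 to 35.0), 12.5% (8.74 to 17.3) and 13.4% (9.52 to 18.2), which did not overlap.

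**Figure D3:**
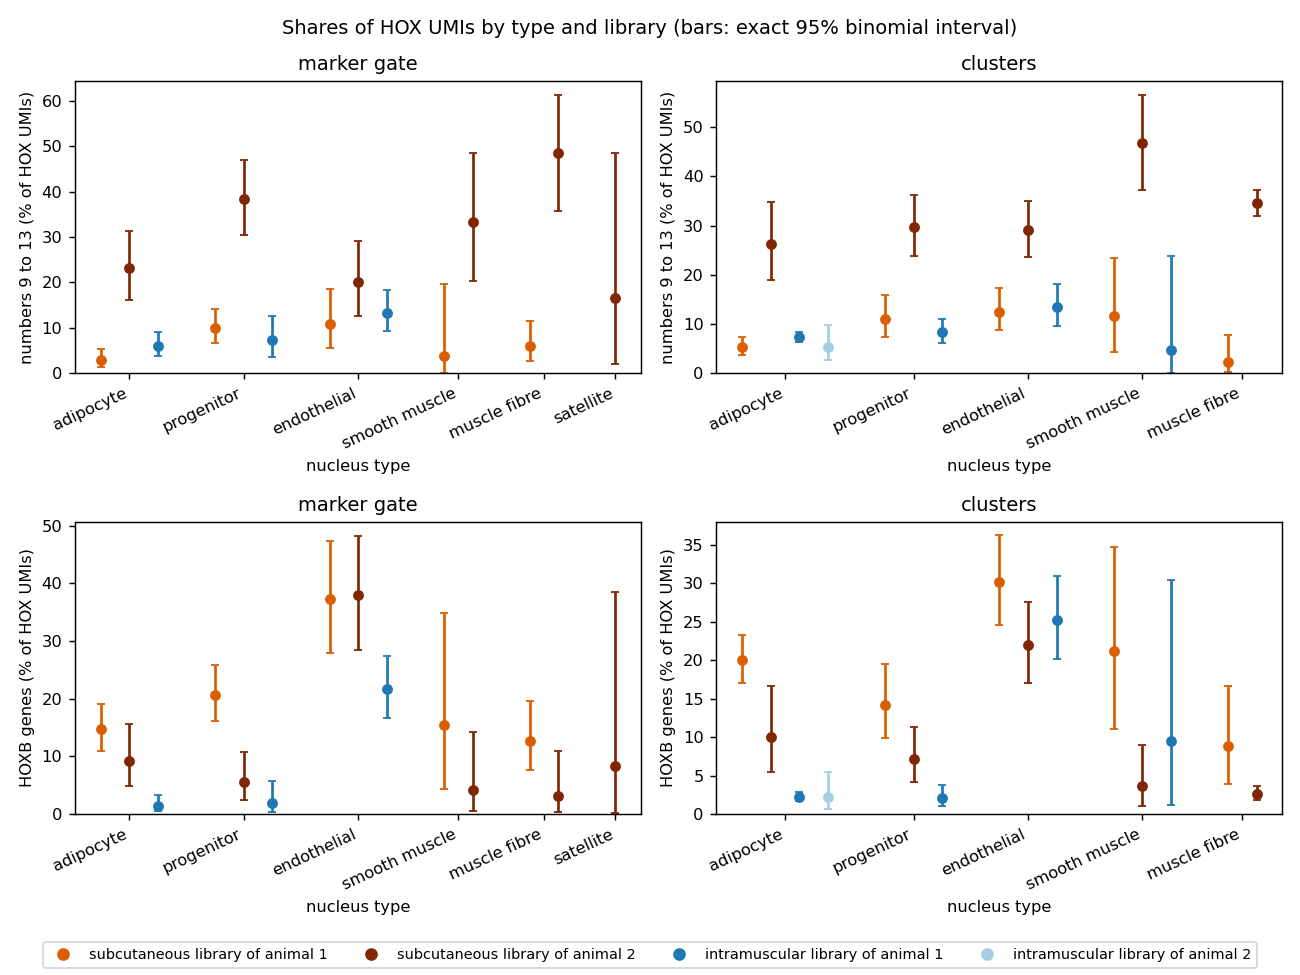
Share of HOX UMIs from genes numbered 9 to 13 (top) and from HOXB genes (bottom) by nucleus type, from the marker gate (left) and from clusters (right). Points are libraries and bars exact 95% binomial intervals: subcutaneous 2 is the highest library for numbers 9 to 13 in each type shown with more than 1 library, and both intramuscular libraries have low HOXB shares in adipocyte clusters (2.17% each).

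HOXA9 gave 21 of the 30 UMIs of numbers 9 to 13 in adipocyte and 48 of 55 in progenitor nuclei of subcutaneous 2, and 9 of 31 in fibres. In subcutaneous 2 against subcutaneous 1 it was 8.20 times as high in adipocyte nuclei (95% interval of the ratio 3.36 to 22.8), 4.73 times in progenitor nuclei (2.75 to 8.40) and 5.60 times in fibres (1.16 to 53.3, from 9 and 2 UMIs). In endothelial nuclei the ratio was 1.81 (0.761 to 4.60). The contrast also held within animal 2: in adipocyte clusters HOXA9 had 522 CPM in subcutaneous 2 and 69.0 in intramuscular 2, a ratio of 7.56 (3.18 to 20.7). In animal 1 the adipocyte clusters of the depots had 74.2 and 56.8 CPM, a ratio of 1.31 (0.764 to 2.13). HOXC9 was 12.3 times as high in subcutaneous 2 as in subcutaneous 1 adipocyte nuclei (2.54 to 117, from 9 and 2 UMIs). With 1 library per depot and animal, an animal, a sampling site and a library cannot be told apart here.

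Several other genes, not all of high number, had most of their UMIs in subcutaneous 2. Of 74 HOXC10 UMIs in the kept nuclei 64 were in that library, as were 38 of 46 for HOXD9, 20 of 22 for HOXA10, 29 of 40 for HOXD8 and 22 of 23 for HOXD1, the last a gene of the anterior end. Fibre clusters of that library held 59 of these UMIs for HOXC10, 36 for HOXD9, 18 for HOXA10, 23 for HOXD8 and 19 for HOXD1. Subcutaneous 2 holds most of the kept nuclei, 4006966 UMIs, so these counts are not levels. Over all kept nuclei HOXC10 had 16.0 CPM in subcutaneous 2, 1.76 in subcutaneous 1 and 2.94 in intramuscular 1. HOXD8 had 7.24, 5.27 and 1.84 CPM in that order. Muscle RNA was also highest in subcutaneous 2. Fibre list genes took 8.10% of UMIs in its adipocyte, 11.2% in its progenitor, 6.46% in its endothelial and 11.9% in its smooth muscle nuclei, against 0.606% to 1.45% in subcutaneous 1. HOXA9 had 38.0 CPM in fibres of that library and 429, 496 and 251 CPM in its adipocyte, progenitor and smooth muscle nuclei. The part of muscle RNA in the values of subcutaneous 2 was not tested.

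In animal 1 several HOXB genes were lower in adipocyte nuclei of the library labelled intramuscular than of that labelled subcutaneous. In adipocyte clusters HOXB7 had 25 UMIs (92.8 CPM) in subcutaneous 1 and 6 (3.52 CPM) in intramuscular 1, a ratio of 26.4 (10.6 to 78.6). HOXB2 had 11 and 2 UMIs, a ratio of 34.8 (7.60 to 323), and HOXB4 18 and 20, a ratio of 5.70 (2.84 to 11.3). In endothelial clusters the same ratios were 2.21 (1.12 to 4.44) for HOXB7, 1.68 (0.768 to 3.72) for HOXB2 and 1.203 (0.608 to 2.35) for HOXB4. Whether the types differ in these ratios was not tested. In animal 2 the adipocyte clusters had 1 and 2 UMIs of HOXB7 (20.9 CPM in subcutaneous 2 and 19.7 in intramuscular 2), too few to show a difference. In gated progenitor nuclei HOXB7 had 16 UMIs in subcutaneous 1 and none in intramuscular 1. The ratio was 3.83 with 3 counts put in place of the 0, and its lower 95% limit from the counts themselves was 2.77. HOXB4 had 14 and 2 UMIs there, a ratio of 5.02 (1.15 to 45.5). HOXC9 went the other way in endothelial nuclei, with 0 UMIs in subcutaneous 1 and 10 in intramuscular 1, where the adipocyte and progenitor list genes given above were also higher. The upper 95% limit of the ratio of subcutaneous 1 to intramuscular 1 was 0.891, and 0.410 in clusters, from 0 and 15 UMIs.

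**Figure D4:**
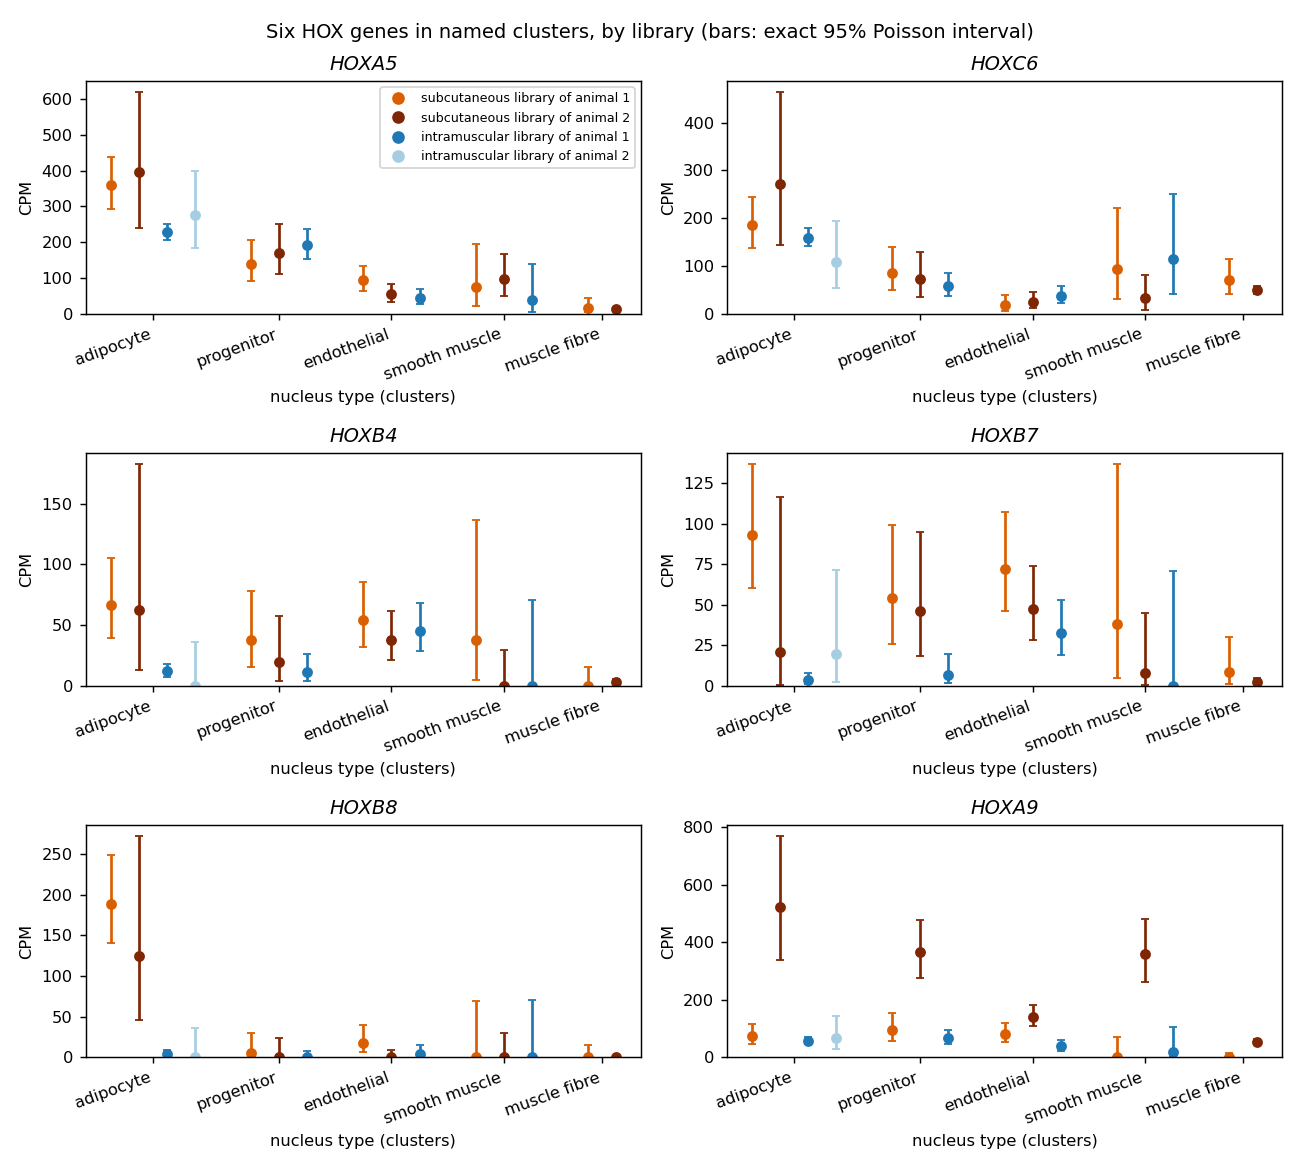
CPM of HOXA5, HOXC6, HOXB4, HOXB7, HOXB8 and HOXA9 in clusters of 5 types by library, with exact 95% Poisson intervals. HOXA5 is highest in adipocyte nuclei, HOXB7 and HOXB4 are low in adipocyte nuclei of intramuscular 1 (3.52 and 11.7 CPM, against 32.7 and 45.0 in its endothelial nuclei), and HOXA9 is highest in subcutaneous 2.

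The depot labels are used as given, although muscle RNA was found mainly in the libraries labelled subcutaneous. Tested over libraries, 1 of 10 HOX genes fell in adipocyte nuclei labelled intramuscular, beside 2% of all 4305 genes called lower. This was HOXB8, with 18 and 6 UMIs in the subcutaneous libraries and 1 in intramuscular 1, which fell by 4.57 (SE 1.27, adjusted p = 0.0134, edgeR). Only 1 intramuscular library entered this fit, so it was taken to vary as much as the subcutaneous pair. With clusters, which add intramuscular 2, HOXB8 fell by 5.10 (SE 0.88, adjusted p = 0.0336, edgeR). With the animal as a replicate block, a fit chosen after seeing the data, it fell by 5.25 (SE 0.89, adjusted p = 0.0142). By the gate HOXB8 was not called with nuclei of at least 500 genes or with the stricter gate. HOXA9, at -1.79 (SE 0.78, adjusted p = 0.360), did not pass, and its libraries lay at 52.4 and 429 against 57.3 CPM. In progenitor nuclei 0 of 8 HOX genes were called by edgeR, with 1 (HOXA9) at an unadjusted p under 0.05 and 0 by DESeq2, beside 2.73% of all genes. In endothelial nuclei 0 of 6 were called by edgeR, with 0 at an unadjusted p under 0.05 and 0 by DESeq2, beside 8.7% of all genes.

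Other genes of the pathway are the HOX cofactors and the regulators of the clusters. Of 10 genes of the PBX, MEIS, PKNOX and TGIF families 6 were tested. MEIS1, a cofactor of HOX proteins, rose in adipocyte nuclei by 2.34 (SE 0.79, adjusted p = 0.0426, edgeR). Progenitor nuclei had a similar MEIS1 value, 2.19 (SE 0.77), which missed the threshold (adjusted p = 0.1, edgeR). TGIF1, a repressor of the same homeodomain class, rose in endothelial nuclei by 3.86 (SE 0.95, adjusted p = 0.00285, edgeR). Of 21 regulators, such as Polycomb and trithorax genes and retinoic acid receptors, 12 were tested. KDM6B, a demethylase that removes the repressive mark of Polycomb, rose in endothelial nuclei by 1.34 (SE 0.45, adjusted p = 0.0352). All values of these lists are from the main gated fits, of which those between types include the satellite sum. No other member of either list was called in any of the 6 types or between depots. In adipocyte nuclei 1 of 6 cofactors and 0 of 12 regulators were thus called, and in endothelial nuclei 1 of 6 and 1 of 12, beside the 13.3% and 16.2% of all genes given above. With so few genes these counts do not stand apart from all genes.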

How the data were processed

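The authors deposited 1 filtered matrix of raw UMI counts per library. Counting used Cell Ranger 6.0.1, per the file headers, and the genome build was ARS-UCD1.2, per the submitters' processing notes. The annotation is not given in the sources used here, nor is the handling of intronic reads. Nuclei with at least 200 genes and under 10% mitochondrial UMIs were kept. A nucleus was gated to a type when UMIs of at least 2 of its markers exceeded the level in other nuclei of the library (Poisson p of at most 1e-04, at least 2-fold, and 2 log10 units better than any other type). Doublets were not called. Clusters (scanpy 1.11.5, igraph 0.11.9, Leiden, without HOX genes) needed 3 markers among 100 leading genes.

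Since nuclei of 1 library are no replicates, their UMIs were added up by library and type where at least 10 nuclei were present. Sums were tested with edgeR 4.0.16 (filterByExpr, TMM, quasi-likelihood F test, R 4.3.3) over all genes, with the library as a term between types. The adjusted threshold was 0.05. DESeq2 1.42.0 was an alternative. The test was also run on simulated counts, without effects of library or free RNA and with changes only in genes of higher counts. That run cannot show how the test performs on sparse HOX genes. P-values measure only the spread between these sums. Smooth muscle nuclei were not compared between depots, since intramuscular libraries had none in the gate. Named genes were every HOX gene called in a comparison and the 15 with most UMIs in the 6 types; others, such as HOXC10, HOXD1, HOXD8, HOXD9, HOXA10 and HOXD3, were named after their values were seen. The members, lists and comparisons were chosen with earlier results of these data known. Replicate numbers name the animal and so pair the libraries. In adipocyte clusters the deviations of an animal's libraries from their depot means correlated with r = 0.077 across 4354 genes, which are not independent replicates. The values of 1 HOX gene are not reported here.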

Additional observations from a re-analysis of the deposited data

Results flagged for a closer look

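The ungated nuclei of intramuscular 2, which enter no gated comparison, held 1896 HOX CPM (95% Poisson interval 1629 to 2195), from 179 UMIs in 58 nuclei. This is a signal in nuclei outside the gated comparisons. It was above the level of 1297 (1246 to 1349) in the ungated nuclei of intramuscular 1. HOXA6 gave 74 of these UMIs, HOXA5 28 and HOXD4 27, and 56 of the 63 kept nuclei of this library lay in adipocyte clusters.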

How the results depend on the processing

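Across the alternatives, the 16 calls of a HOX gene in a comparison gave 193 other values, all in the same direction. Of these, 134 stayed past the threshold and 59 did not, and DESeq2 gave 2 no adjusted p (HOXB8 in both comparisons). The 193 values include, for each call, the fit without intramuscular 2, which only repeats the main fit. The count of HOX genes called in adipocyte nuclei (8) was 3 by the DESeq2 test and 5 with the stricter gate. Leaving out a library gave a count of 2 to 8, with HOXB8 not tested without subcutaneous 1. In progenitor nuclei (3) it was 0 by the DESeq2 test and 1 with no library term, and 0 to 3 without a library. In endothelial nuclei (4) it was 2 with DESeq2 size factors, 2 with nuclei of at least 500 genes, 2 with nuclei given the same type by gate and cluster and 2 with no library term, and 1 by the DESeq2 test. It was 0 with the stricter gate, where HOXB2, HOXB4 and HOXB7 were not tested, and 0 or 1 without a library that enters the fits. HOXB4 was not tested without intramuscular 1. Not all of these HOXB genes were tested with nuclei of at least 500 genes or where gate and cluster agreed. In muscle fibres (0) it was 1 with the stricter gate (HOXC9, higher), 4 by clusters and 2 without satellite nuclei, and 0 to 1 without a library. Between depots in adipocyte nuclei (1) it was 0 by the DESeq2 test, where HOXB8 had no adjusted p, 0 with nuclei of at least 500 genes and 0 with the stricter gate. By clusters HOXB8 was not tested without subcutaneous 1, the library with most of its UMIs. In clusters without intramuscular 2, HOXB8 was at -4.87 (SE 0.80) and HOXB7 at -4.09 (SE 1.00). Without intramuscular 2 the gated fits are unchanged by construction, since it enters none. The ranges without a library given for adipocyte, progenitor and fibre nuclei include that unchanged count. With the animal as a replicate block, which could be fitted only in adipocyte clusters, the count was 1 (HOXB8) as without the block. The causes were not tested. The gate-and-cluster sums, those without satellite nuclei and the blocked clusters were chosen after seeing the data. Smooth muscle, satellite and the other depot counts were 0 in each alternative run. Few UMIs limit all values: most HOX genes had under 50 per library and type, and the satellite sum held 12 in all. Gated depot fits without a subcutaneous library or without intramuscular 1, depot fits of smooth muscle nuclei, cluster fits of satellite nuclei and satellite fits without subcutaneous 2 were not run.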
